A study of Mus musculus with 305 samples.

Results

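The genes described here encode the Fos and Jun subunits of AP-1: Fos, Fosb, Fosl1 and Fosl2 of the Fos family, and Jun, Junb and Jund of the Jun family. They were chosen by symbol, with earlier results of these data known. They are 7 of the 52636 genes in the deposited count table, and were followed in bulk RNA-seq of 6 brain regions of 51 male wild-type mice. In this field PFC stands for prefrontal cortex, NAc for nucleus accumbens, dStri for dorsal striatum, BLA for basolateral amygdala, vHPC for ventral hippocampus and VTA for ventral tegmental area.

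All mice had self-administered heroin, an opioid agonist, or saline by the intravenous route for 15 d. Withdrawal lasted 24 h in S24 (saline, 8 mice) and H24 (heroin, 11 mice). It lasted 30 d in the remaining 32 mice, which then had a heroin or saline challenge with 2 h of drug-seeking testing. Their group names give the self-administered drug and then the challenge, with 8 mice each: SS (saline, saline), SH (saline, heroin), HS (heroin, saline) and HH (heroin, heroin). The age of the mice and the dose of the challenge are not given in the sources used here. BLA S24 holds 7 libraries and VTA HH 7, since 1 VTA library with 0.8899 M counts was left out. The other libraries held 19.31 to 61.35 M counts, and 16 of them stood apart from the other libraries of their region. Among these are 2 vHPC libraries (SH mouse 27 and SS mouse 28) whose profile lay nearest to BLA. Dopamine neuron markers summed to a median of 3572 counts-per-million (CPM) in VTA and medians of at most 54.1 CPM outside it. Markers of striatal projection neurons summed to medians of 6097 CPM in dStri and 3997 CPM in NAc, and of at most 733.2 CPM elsewhere. No list held markers particular to BLA.

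AP-1 is a dimer that binds DNA through paired leucine zipper proteins. Jun proteins pair with each other or with Fos proteins, whereas Fos proteins need a Jun partner. In neurons, calcium and MAP kinase signals act on factors already bound at the Fos, Fosb and Junb promoters, so that these genes are transcribed within minutes of activity and serve as activity markers. ΔFosB, a stable splice form of Fosb, is known for its build-up in the striatum under repeated drug intake. Gene counts add up all splice forms, so that ΔFosB and full-length FosB cannot be told apart here. In bulk tissue, a change in the share of cells and a change in RNA per cell cannot be told apart either.

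The 250 bases before the RefSeq start (GRCm38.p6) are shown for Fos, Fosb and Junb, which varied together between mice, and for Jun, which moved less. Capitals mark the motifs searched on both strands: the cyclic AMP response element TGACGTCA, its core TGACG, the AP-1 site TGANTCA, the variant AP-1 site TGACATCA (added after the Jun sequence was read), the CArG box and the TATA box TATAAA. The GC box GGGCGG was also searched and is left in lower case. A full response element contains the core.
Fos (chr12:85473640-85473889, + strand): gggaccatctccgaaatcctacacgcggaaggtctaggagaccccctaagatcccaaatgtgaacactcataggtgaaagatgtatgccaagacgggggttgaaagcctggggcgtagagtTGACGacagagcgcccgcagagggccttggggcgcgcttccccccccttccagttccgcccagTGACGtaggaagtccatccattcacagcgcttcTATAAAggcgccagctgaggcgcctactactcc
Fosb (chr7:19310046-19310295, - strand): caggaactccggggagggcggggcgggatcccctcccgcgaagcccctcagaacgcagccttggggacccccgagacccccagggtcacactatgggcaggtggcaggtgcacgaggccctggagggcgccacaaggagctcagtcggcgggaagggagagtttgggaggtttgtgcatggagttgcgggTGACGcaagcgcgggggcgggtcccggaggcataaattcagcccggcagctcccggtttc
Junb (chr8:84978749-84978998, - strand): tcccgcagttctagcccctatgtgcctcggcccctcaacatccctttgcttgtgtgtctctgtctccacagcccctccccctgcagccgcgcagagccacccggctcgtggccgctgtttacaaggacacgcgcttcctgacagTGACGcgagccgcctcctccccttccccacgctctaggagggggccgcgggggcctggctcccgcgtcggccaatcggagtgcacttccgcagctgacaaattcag
Jun (chr4:95052223-95052472, - strand): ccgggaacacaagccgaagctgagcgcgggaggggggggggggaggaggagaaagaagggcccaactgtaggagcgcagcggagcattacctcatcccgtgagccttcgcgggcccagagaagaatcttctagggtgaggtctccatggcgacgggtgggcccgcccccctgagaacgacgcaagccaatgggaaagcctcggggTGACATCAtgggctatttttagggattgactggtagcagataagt

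Counted back from the start, Fos held the TGACG core ending at -125 and again at -66 to -62, and the TATA box at -33 to -28. Fosb held 1 such core at -60 to -56, and Junb held 1 farther upstream. The core was found in 17.8% of 32851 RefSeq mouse promoters of the same length. Jun held the variant AP-1 site at -45 to -38, which 2.93% of those promoters hold. Neither Fosl2 nor Jund held a capitalised motif in this window, and their windows are not printed because their RefSeq starts lie 671 and 1210 bases from the GENCODE gene starts. A match describes letters in a window, and no binding was measured.

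In the GENCODE M21 annotation (GRCm38), Fos lies at chr12:85473890-85477273, Fosb at chr7:19302696-19310051, Fosl1 at chr19:5447547-5455946 and Fosl2 at chr5:32135801-32157842. Jun lies at chr4:95049034-95052222, Junb at chr8:84974484-84978718 and Jund at chr8:70698949-70700616. The annotation used for counting is not given in the sources used here. Fosl1 and Jund need care, since 57.2% and 52.6% of their exon bases are overlapped by exons on the opposite strand, of Ccdc85b and of the gene model Gm11175. Of 49 coding genes with over 95% of their exon bases overlapped in this way, 71.4% had 0 counts in every library, against 5.19% of 16558 genes with no such overlap. Among genes with an overlap over 50 and up to 80%, the class of Fosl1 and Jund, the share at 0 was also 5.19%, which cannot show a partial loss of counts. The median level was 1.16 CPM in this class and 3.22 CPM with no overlap. It was 19.9 CPM for an overlap over 0 to 20% and 7.2 CPM over 20 to 50%. How reads over shared bases were counted is not given in the sources used here, so the levels of both genes are uncertain. The overlap was 7.28% for Jun and 7.52% for Junb, and 0 for Fos, Fosb and Fosl2.

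All 7 genes passed the filter on low counts in every region. Per kilobase of exon and over all libraries, Junb stood highest with 31.37 CPM per kb, followed by Jun with 16.5, Fos with 8.113, Fosl2 with 7.184, Fosb with 2.583, Fosl1 with 2.084 and Jund with 0.696. Over exon bases free of overlap, Fosl1 came to 4.871 and Jund to 1.468 CPM per kb. Jund, whose product is known as a steadily present Jun protein, had a median of 35 counts per library, and Fosl1 had 19 at the lowest.

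Levels differed between regions. The mean levels below are CPM over all mice of a region, and neighbours in the order were compared within mice by a sign-flip permutation test of log2 CPM (two-sided), adjusted over 35 neighbour pairs. Of these pairs, 21 differed at an adjusted p under 0.05. Fos, the classical activity marker, was highest in PFC with 33.5 CPM ± 15.0 (SD, n = 51 libraries). BLA followed with 20.1, dStri with 17.8, NAc with 16.2, VTA with 16.2 and vHPC with 10.6 CPM. PFC exceeded BLA in 49 of 50 mice. BLA and dStri were not told apart (permutation adjusted p = 0.32), nor were NAc and VTA (permutation adjusted p = 0.71). These tests pool the 24 h and the 30 d mice, in which the order can differ. Fos averaged 10 CPM in BLA and 15 CPM in dStri in S24, but 22.7 and 18.8 CPM in SS.

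Fosb and Fosl2 fell off steeply in VTA. Fosb averaged 25.7 CPM in PFC, 21.8 in dStri, 20.0 in NAc, 15.6 in BLA and 11.7 in vHPC, but 1.73 CPM ± 1.16 (SD, n = 50) in VTA. All 50 mice had less Fosb in VTA than in vHPC, by 2.69 ± 0.109 (SE) on the log2 scale. PFC, dStri and NAc were not told apart as neighbours for Fosb over all mice (permutation adjusted p = 0.85 and 0.052). The order of PFC and dStri was reversed between the 24 h and the 30 d mice. In S24, Fosb averaged 9.11 CPM in PFC and 13.2 CPM in dStri, but 30 and 27.1 CPM in SS. Fosl2, which encodes the Fos protein Fra-2, was highest in vHPC with 132.6 CPM and lowest in VTA with 14.1 CPM. Between them lay PFC with 73.7, NAc with 69.9, dStri with 65.9 and BLA with 59.7 CPM, of which no neighbouring pair differed (permutation adjusted p = 0.25 for each pair).

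The Jun genes had orders of their own. Jun was highest in vHPC with 121.5 CPM ± 24.0 (SD, n = 51) and fell through BLA (64.7), PFC (44.4), VTA (35.1) and NAc (26.4) to dStri (23.4 CPM), and all 5 neighbouring pairs differed. Junb, whose product pairs with Fos proteins and often acts more weakly than Jun, was highest in dStri with 114.7 CPM. It averaged 89.9 CPM in PFC, 86.8 in NAc, 71.4 in BLA, 55.4 in vHPC and 13.8 in VTA. PFC and NAc alone among the Junb neighbours were not told apart over all mice (permutation adjusted p = 0.71). Junb averaged 75.8 CPM in PFC and 89.5 CPM in NAc in S24, but 93.2 and 78.7 CPM in SS. Jun and Junb were thus ordered differently across regions: dStri was lowest for Jun and highest for Junb. Fosl1, which encodes Fra-1, ran from 5.81 CPM in dStri to 2.26 CPM in VTA, and its partner on the opposite strand, Ccdc85b, was also highest in dStri (45.1 CPM) and lowest in VTA (30.0 CPM). Between these ends the orders differed. NAc came next after dStri for Fosl1 (4.89 CPM), but for Ccdc85b it lay at 33.1 CPM, below vHPC (37.0), PFC (36.0) and BLA (34.2). Jund lay between 1.06 and 1.3 CPM in all regions, and none of its 5 neighbouring pairs differed (smallest permutation adjusted p = 0.55).

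**Figure D1:**
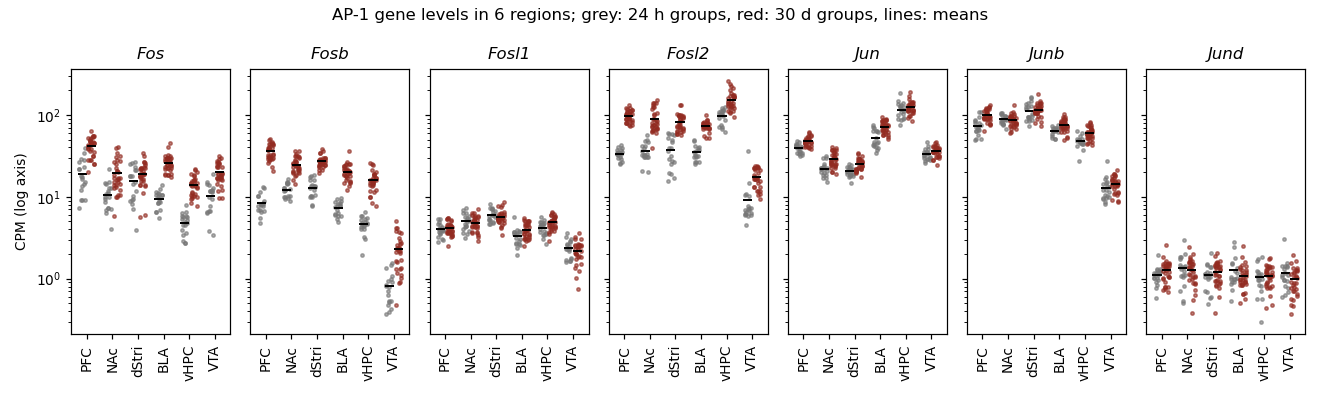
Levels of the 7 genes by region in CPM on a log axis, 1 point per library, with the 24 h groups in grey, the 30 d groups in red and lines at the means. Fosb, Fosl2 and Junb drop in VTA, Jun peaks in vHPC at 121.5 CPM, and Fosl1 and Jund show no gap between the 24 h and the 30 d mice.

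The 24 h and the 30 d mice also stood far apart for some members. In PFC, Fosb averaged 9.11 CPM in S24 and 7.95 CPM in H24, and 30.0 CPM in SS. Its highest 24 h value there, 13.0 CPM, lay below the lowest 30 d value, 20.4 CPM. Fosl2 in PFC averaged 34.5 CPM in S24 and 86.8 CPM in SS, and Fos 20.7 and 36.4 CPM. Fosl1 (3.71 and 3.99 CPM) and Jund (1.08 and 1.14 CPM) had close means in these groups. Withdrawal time, the challenge and test, and the sample code set differ together between these groups and cannot be told apart, so no test was made.

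Whether a heroin challenge changed the AP-1 genes was asked in the 30 d mice by setting the 16 heroin-challenged mice (SH and HH) against the 16 saline-challenged mice (SS and HS), with both histories weighted equally. Fos, Fosb and Fosl2 rose in PFC by this contrast. No other member and region passed. These 3 of 42 tests stand beside 0.0416% of all genes called over the 6 regions, and 3 of 7 in PFC beside 0.235% of 19976 genes called there. At an unadjusted p under 0.05, 18 of 42 tests passed, all 18 higher, beside 4.99% of all gene tests in either direction.

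Fosl2 rose in PFC from 73.9 to 102.4 CPM (lowest and highest, median 85) in the saline-challenged mice to 89.7 to 132.97 CPM (median 109.8) in the heroin-challenged mice. All 16 heroin-challenged libraries lay above the saline-challenge mean (taken on the log2 scale, as for all such counts of libraries) and 12 lay above every saline-challenged library. The log2 difference was 0.36 ± 0.0548 (SE, edgeR adjusted p = 0.000296). Fosb ranged from 20.4 to 39.7 CPM (median 30.1) after saline and from 28.6 to 50.8 CPM (median 43.1) after heroin, with 10 heroin-challenged libraries above every saline-challenged one. Its log2 difference was 0.50 ± 0.0798 (SE, edgeR adjusted p = 0.000724). Only PFC SH mouse 29, a library that stood apart, fell below the saline-challenge mean.

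Fos in PFC ranged from 20.0 to 54.9 CPM (median 33.5) after saline and from 38.3 to 62.7 CPM (median 48.3) after heroin. The groups overlapped more than for Fosl2, and 3 heroin-challenged libraries exceeded every saline-challenged one, although all 16 lay above their mean. The log2 difference was 0.52 ± 0.0983 (SE, edgeR adjusted p = 0.00541). Junb in PFC did not pass: it ranged from 64 to 118.2 CPM after saline and from 78.4 to 132.6 CPM after heroin, a log2 difference of 0.27 ± 0.0695 (SE, edgeR adjusted p = 0.0962). Without the libraries that stood apart its adjusted p was 0.0248, and with DESeq2 0.0223. The calls of Fos, Fosb and Fosl2 held in each of 32 fits that left out 1 PFC library, with log2 differences of 0.48 to 0.61, 0.46 to 0.55 and 0.35 to 0.40.

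**Figure D2:**
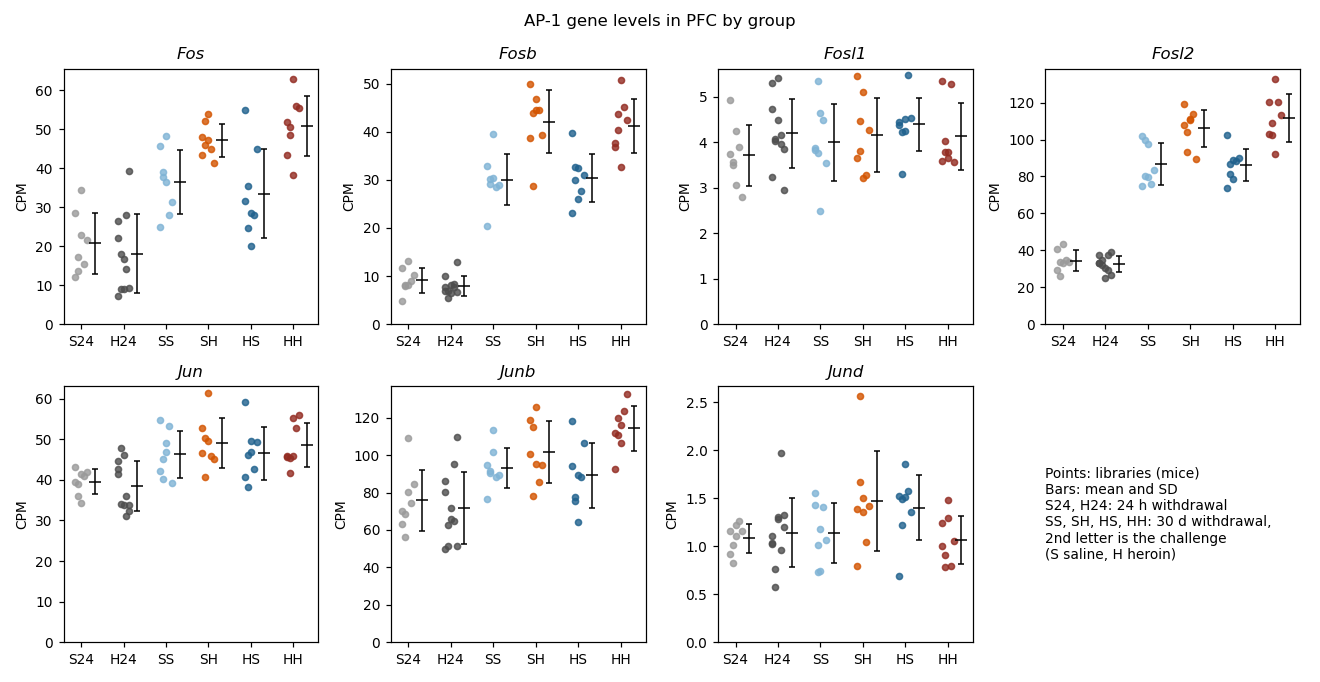
Levels of the 7 genes in PFC in CPM by group, 1 point per library with the mean and SD beside each group. In Fosl2, Fosb and Fos the SH and HH libraries sit above most of the SS and HS libraries, while Fosl1, Jun and Jund overlap across the 30 d groups.

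Other cell types moved with this contrast in PFC. Meningeal fibroblast markers were lower after heroin in 10 of 10 cases, 4 of them called, with a median log2 difference of -0.80, and their sum ranged from 92.7 to 279.6 CPM (median 164.1) against 179.2 to 517.9 CPM (median 253.6). All 10 oligodendrocyte markers were lower too, none of them called, with a median of -0.46 and a sum of 1158 to 3289 CPM against 1169 to 3723 CPM. None of these 20 markers was at 0 in any PFC library. With a score of both lists in the fit, Fosl2 stayed past the threshold (0.35, edgeR adjusted p = 0.0478), whereas Fosb (0.50, adjusted p = 0.0863) and Fos (0.59, adjusted p = 0.118) had log2 differences as large or larger but did not pass. Markers of cortical and hippocampal excitatory neurons differed in PFC by -0.02 (Neurod2) to 0.29 (Camk2a), with Nrgn at 0.20. None of them was called.

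The codes of the BLA libraries open with a set digit whose meaning is not given, and all 24 h mice with such a code fall in set 3. Within the other sets, of which set 1 held 10 heroin-challenged and 9 saline-challenged mice and set 2 held 6 and 7, the PFC differences of the 3 called genes had the same direction. There, mean log2 CPM differed by 0.31 and 0.34 for Fosl2, 0.44 and 0.49 for Fosb, and 0.44 and 0.61 for Fos in sets 1 and 2. In SH against SS these PFC differences were 0.16 and 0.34, 0.33 and 0.57, and 0.09 and 0.59. In HH against HS, with 2 mice each in set 2, they were 0.39 and 0.33, 0.49 and 0.32, and 0.64 and 0.70. In BLA, SH against SS was negative in set 1 and positive in set 2. The values were -0.06 and 0.19 for Fosl2, -0.21 and 0.52 for Fosb, and -0.04 and 0.65 for Fos.

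Outside PFC, the same contrast gave larger differences for some members without a call. In NAc, Fosl2 ranged from 39 to 100.99 CPM (median 69.9) after saline and from 65.5 to 153.2 CPM (median 112.3) after heroin, with 15 of 16 heroin-challenged libraries above the saline-challenge mean of log2 CPM. The log2 difference was 0.59 ± 0.12 (SE, edgeR adjusted p = 0.067). DESeq2 and the fit with no filter on low counts called it (adjusted p = 0.0474 and 0.0203). Fos in NAc ranged from 5.78 to 22.2 CPM after saline and from 9.95 to 40.5 CPM after heroin, and differed by 0.72 ± 0.175 (SE, edgeR adjusted p = 0.296). In dStri, Fosl2 ranged from 57.4 to 99 CPM and from 64.4 to 133.5 CPM, and differed by 0.42 ± 0.0866 (SE, edgeR adjusted p = 0.101). The fit with no filter called it (adjusted p = 0.025).

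Markers of cortical and hippocampal excitatory neurons moved with these striatal values. Of 8 such markers, 7 were higher after heroin in NAc (median log2 difference 1.14) and 7 in dStri (median 1.24), none of them called. In NAc the median was 1.20 in SH against SS and 0.89 in HH against HS. In dStri it was 2.65 in SH against SS, with 7 of 8 higher, and -0.08 in HH against HS, with 3 of 8 higher. Their sum ranged from 597.2 to 1691 CPM against 594.98 to 1322 CPM in NAc and from 893.7 to 1537 CPM against 824.9 to 1613 CPM in dStri. With the score of this list in the fit, Fosl2 differed by 0.46 (edgeR adjusted p = 0.0548) and Fos by 0.58 in NAc, and Fosl2 by 0.42 in dStri.

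The other values past an unadjusted p of 0.05 were all of Fos, Fosb and Junb. Fos differed by 0.41 ± 0.0961 (SE) in BLA, where 16 of 16 heroin-challenged libraries lay above the saline-challenge mean. It differed by 0.46 ± 0.122 in VTA (15 of 15 libraries above the mean of log2 CPM) and by 0.26 ± 0.122 in vHPC (12 of 16). Fosb differed by 0.26 ± 0.104 in NAc, 0.16 ± 0.0691 in dStri, 0.23 ± 0.109 in BLA, 0.30 ± 0.13 in vHPC and 0.52 ± 0.23 in VTA, so that all 6 of its regions were higher at this level. Junb differed by 0.21 ± 0.0771 in NAc, 0.17 ± 0.0835 in dStri and 0.19 ± 0.083 in BLA. The smallest edgeR adjusted p among these was 0.604.

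Fosl1, Jun and Jund gave no value past an unadjusted p of 0.05 in any region. Their log2 differences ran from -0.10 to 0.13 for Fosl1, from -0.11 to 0.13 for Jun and from -0.13 to 0.01 for Jund. Jun was higher in 4 of 6 regions, while Fos, Fosb, Fosl2 and Junb were each higher in all 6.

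**Figure D3:**
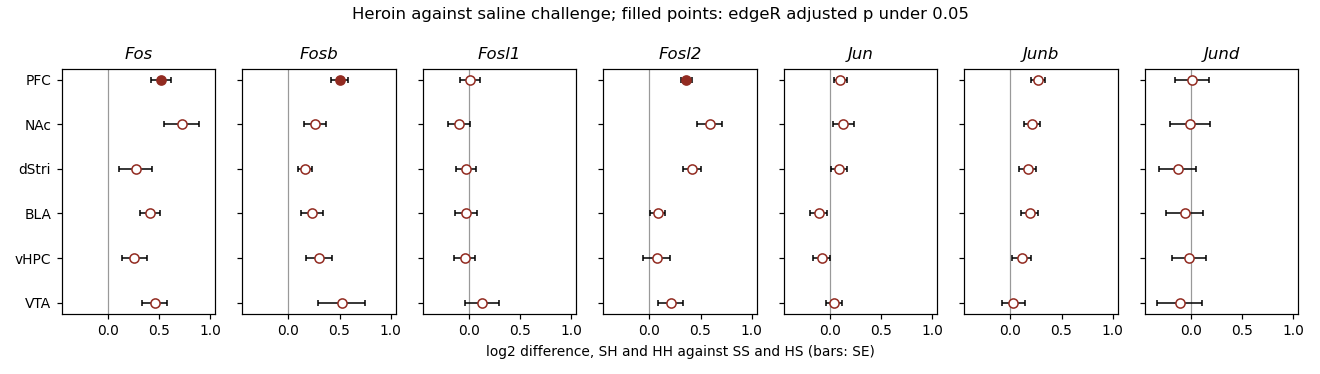
Log2 difference between heroin-challenged and saline-challenged mice for each gene and region, with SE as bars and filled points for an edgeR adjusted p under 0.05. The filled points are Fos, Fosb and Fosl2 in PFC, and Fosl1, Jun and Jund lie near 0.

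The challenge was also read within each history, SH against SS for saline and HH against HS for heroin, and these 2 comparisons share no animals. After a saline history, 0 of 42 member tests passed, beside 0.0034% of all genes called, and 9 passed at an unadjusted p, beside 4.16% of all genes. DESeq2 called 2, Fosb and Fosl2 in PFC, beside 0.0917% of the genes it gave an adjusted p there. After a heroin history 1 passed, Fosl2 in PFC, beside 0.00424% of all genes over the regions and 0.025% in PFC. At an unadjusted p, 15 passed there, all 15 higher, beside 3.78% of all genes.

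Fosl2 in PFC ranged from 73.9 to 102.4 CPM in HS (median 87.6) and from 92.3 to 132.97 CPM in HH (median 111.1). In HH, 6 of 8 libraries exceeded every HS library, and the log2 difference was 0.40 ± 0.0774 (SE, edgeR adjusted p = 0.0292). The call was lost when any of 9 PFC libraries was left out (HH mice 7, 9, 16, 18 and 21, HS mice 12, 14, 20 and 23), with adjusted p up to 0.143, and with the meningeal and oligodendrocyte scores in the fit (0.37, adjusted p = 0.251). Each of the 10 meningeal markers was lower in HH than in HS (median log2 difference -0.82), with sums of 101.2 to 279.6 CPM against 200.8 to 517.9 CPM. All 10 oligodendrocyte markers were lower too (median -0.39), with sums of 1158 to 2670 CPM against 1391 to 3545 CPM. In the saline-history mice, Fosl2 in PFC differed by 0.32 ± 0.0776 (SE, edgeR adjusted p = 0.188), from 74.9 to 102.1 CPM in SS and from 89.7 to 119.2 CPM in SH.

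Across the 42 values, 26 were higher in both histories, 5 lower in both and 11 opposite. With the code sets pooled, Fos, Fosb and Fosl2 were higher in both histories in all 6 regions and Junb in 5, but neither Fosl1 nor Jund in any. The interaction of challenge and history called 0 members, beside 0% of all genes, with 2 past an unadjusted p, beside 3.25% of all genes. For Fosl2 in PFC it was 0.08 ± 0.109 (SE, edgeR adjusted p = 1). The 2 were Jund in PFC (-0.74 ± 0.327) and Jun in vHPC (0.36 ± 0.171). For Jund, PFC means were 1.14 CPM in SS, 1.47 in SH, 1.40 in HS and 1.07 in HH.

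Fos, Fosb and Junb in SH against SS are given for each region. In PFC, Fosb ranged from 20.4 to 39.6 CPM in SS and from 28.6 to 50.0 CPM in SH, with 5 of 8 SH libraries above every SS library. The log2 difference was 0.52 ± 0.113 (SE, edgeR adjusted p = 0.113). Without the libraries that stood apart it was 0.60 and passed (edgeR adjusted p = 0.0172). It also passed when SS mouse 15 alone was left out. With the meningeal and oligodendrocyte scores in the fit it was 0.53 and did not pass (edgeR adjusted p = 0.69). In this comparison, 10 of 10 meningeal markers were lower in SH (median -0.80), with sums of 92.7 to 211.9 CPM against 179.2 to 487.4 CPM, and 10 of 10 oligodendrocyte markers (median -0.57), with sums of 1181 to 3289 CPM against 1169 to 3723 CPM. Elsewhere Fosb differed by 0.21 ± 0.147 in NAc, 0.05 ± 0.0976 in dStri, 0.20 ± 0.155 in BLA, 0.18 ± 0.183 in vHPC and 0.19 ± 0.318 in VTA. Fos ranged from 24.9 to 48.3 CPM in SS and from 41.4 to 53.9 CPM in SH in PFC, a difference of 0.41 ± 0.139. In NAc it ranged from 10.4 to 20.7 CPM and from 9.95 to 40.5 CPM, a difference of 0.79 ± 0.248 with the SH libraries spread over a wider range.

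Fos differed by 0.34 ± 0.136 in BLA, 0.34 ± 0.17 in VTA, 0.27 ± 0.173 in vHPC and 0.16 ± 0.228 in dStri. Within code sets 1 and 2, its mean log2 CPM differed by -0.04 and 0.65 in BLA and by -0.08 and 0.38 in dStri. In VTA these differences were 0.35 and 0.43, and in vHPC 0.30 and 0.36. Junb differed by 0.26 ± 0.109 in NAc, where 6 of 8 SH libraries exceeded every SS library, and by 0.16 ± 0.0983 in PFC. In the other regions Junb lay between -0.15 ± 0.158 (VTA) and 0.19 ± 0.117 (BLA). Fosl2 differed by 0.67 ± 0.17 in NAc and 0.36 ± 0.122 in dStri, and Jun by -0.26 ± 0.121 in vHPC. The excitatory neuron markers were higher in the same comparison (medians of 1.20 in NAc and 2.65 in dStri), and with their score in the fit Fosl2 differed by 0.50 in NAc and 0.35 in dStri. None of these passed after adjustment (smallest edgeR adjusted p = 0.113, for Fosb in PFC).

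In HH against HS the further values past an unadjusted p were 0.63 ± 0.139 for Fos, 0.47 ± 0.113 for Fosb and 0.39 ± 0.0982 for Junb in PFC. In NAc they were 0.66 ± 0.248 for Fos, 0.50 ± 0.169 for Fosl2 and 0.31 ± 0.147 for Fosb. In dStri they were 0.48 ± 0.123 for Fosl2, 0.27 ± 0.118 for Junb and 0.26 ± 0.0979 for Fosb. Fos differed by 0.47 ± 0.136 in BLA and 0.59 ± 0.176 in VTA. Fosb differed by 0.43 ± 0.184 in vHPC and 0.85 ± 0.332 in VTA, and Fosl2 by 0.41 ± 0.174 in VTA. VTA HH held 7 libraries.

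**Figure D4:**
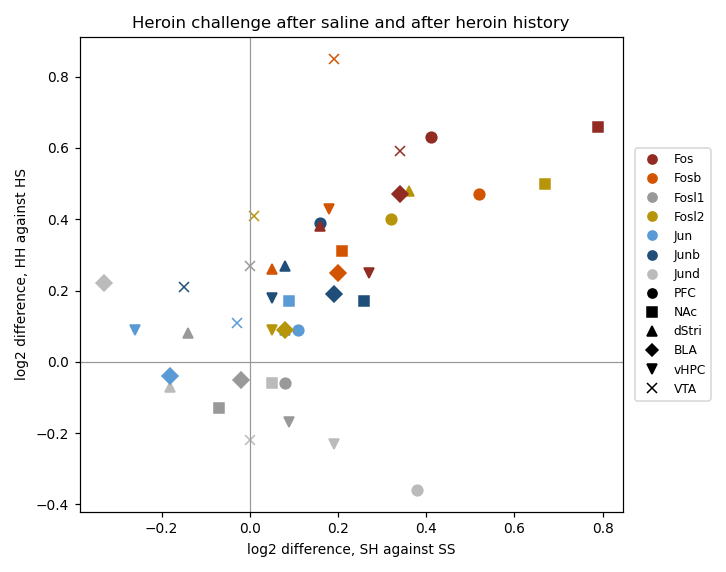
Log2 difference of each member and region after a saline history (SH against SS, x axis) and after a heroin history (HH against HS, y axis), with colour for the gene and shape for the region. Of 42 points, 26 lie in the upper right, among them all of Fos, Fosb and Fosl2.

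Taking 1 value per mouse, the mean over its regions of log2 CPM centred on the region, 4 of 42 member comparisons passed an exact permutation test over mice (two-sided, adjusted over these 42 tests). After a heroin history, Fosb was higher in HH than in HS by 0.41 ± 0.0639 (SE, exact p = 0.000155, the smallest that 8 against 8 mice allow, adjusted p = 0.00653). All 8 HH mice lay above all 8 HS mice. Beside this gap, Fosb differed by -0.18 ± 0.0615 in HS against SS (exact p = 0.0152, adjusted p = 0.064). In HH against SS it differed by 0.23 ± 0.0744 (exact p = 0.00777, adjusted p = 0.0506). Code sets 1 and 2 held 6 and 2 mice of HS and of HH, but 3 and 5 of SS. History and code set thus run partly together in the comparisons with SS. Fosl2 was higher in HH than in HS by 0.32 ± 0.0724 (exact p = 0.00109, adjusted p = 0.0228), with 7 HH mice above every HS mouse. Fos was higher by 0.52 ± 0.156 (exact p = 0.00326, adjusted p = 0.0457), with 5 HH mice above every HS mouse. After a saline history, Fos was higher in SH than in SS by 0.38 ± 0.121 (exact p = 0.00451, adjusted p = 0.0473), with 8 of 8 SH mice above the SS mean.

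Over both histories, a comparison of 16 against 16 mice added later gave 0.45 ± 0.0979 for Fos, 0.32 ± 0.0596 for Fosb, 0.29 ± 0.0535 for Fosl2 and 0.16 ± 0.0597 for Junb (SE). It gave -0.02 ± 0.0404 for Fosl1, 0.03 ± 0.0395 for Jun and -0.06 ± 0.0613 for Jund. No difference was shown to depend on the region: a member's difference in 1 region was set against that in the other regions of the same mice for SH against SS, HH against SS and H24 against S24, and 0 tests passed after adjustment (smallest adjusted exact permutation p = 0.747). For the challenge contrast, added later, 0 of 42 such tests passed either. Its smallest p were those of Fosb in dStri (0.14 there and 0.36 elsewhere, permutation p = 0.00639, adjusted p = 0.192), Fosl2 in BLA (0.09 and 0.33, permutation p = 0.00913, adjusted p = 0.192) and Fosl2 in NAc (0.55 and 0.23, permutation p = 0.0166, adjusted p = 0.233). Among the first 3 contrasts the largest difference was that of Fosl2 in NAc in SH against SS, where the difference was 0.64 in NAc and 0.18 in the mean of the other regions (exact p = 0.0412).

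The questions of heroin history and of early withdrawal gave no call with edgeR. DESeq2 called 0 members in H24 against S24, HS against SS, HH against SH, the history contrast and the interaction, beside 0.0152%, 0%, 0.00133%, 0.000885% and 0.000443% of all genes. It called 1 in HH against SS, beside 0.00354%. In H24 against S24, 0 of 42 tests passed, beside 0% of all genes, and 2 passed at an unadjusted p, beside 4.94%. Both were of Jun. In NAc, Jun ranged from 19.6 to 31.2 CPM in S24 (median 23.5) and from 15.3 to 24.9 CPM in H24 (median 21.5), with 10 of 11 H24 libraries below the S24 mean and a log2 difference of -0.32 ± 0.0987 (SE, edgeR adjusted p = 0.397). In dStri it ranged from 18.1 to 25.4 CPM and from 14.6 to 23.3 CPM, a difference of -0.20 ± 0.0892 (SE, edgeR adjusted p = 0.96). Fosb, the gene of ΔFosB, differed by -0.32 to 0.00 over the regions and was higher in 1 of 6.

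In HS against SS, 0 of 42 passed, beside 0% of all genes, and 3 passed at an unadjusted p, beside 3.25%, all lower: Fos in VTA (-0.36 ± 0.171), Fosb in vHPC (-0.39 ± 0.184) and Jun in vHPC (-0.30 ± 0.121). Fos in VTA ranged from 11.7 to 30.0 CPM in SS and from 9.70 to 25.1 CPM in HS. Code sets 1 and 2 held 6 and 2 HS mice but 3 and 5 SS mice, so history and set run partly together. By set, Fos in VTA had mean log2 CPM of 3.87 and 3.69 in HS and 4.15 and 4.22 in SS. Fosb in vHPC had 3.72 and 3.26 against 3.87 and 4.05, and Jun in vHPC 6.84 and 6.86 against 7.01 and 7.14. Fosb in VTA differed by set within SS (0.45 and 1.47) and had 0.37 and 1.00 in HS. HH against SH called 0, beside 0%, with 0 at an unadjusted p, beside 4.62% of all genes. The history contrast (HS and HH against SS and SH) called 0, beside 0%, with 1 at an unadjusted p (Fosb in vHPC, -0.27 ± 0.13), beside 4.82%. HH against SS called 0, beside 0%, with 9 at an unadjusted p, beside 4.36%. It shares the SS mice with SH against SS, and its 9 values were all higher: Fos in PFC, NAc and BLA (0.52, 0.66 and 0.42), Fosb in PFC (0.49), Fosl2 in PFC, NAc and dStri (0.40, 0.60 and 0.38), and Junb in PFC and dStri (0.33 and 0.29).

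Between mice of 1 group, levels of Fos, Fosb, Fosl2, Jun and Junb were correlated in 9 of their 10 pairs. Over 51 mice, with values centred within region and group and averaged over regions, Fos and Junb had a Pearson r of 0.81 and a Spearman rho of 0.84. For Fos and Fosl2 these were 0.80 and 0.83, for Fosl2 and Junb 0.66 and 0.66, and for Fos and Fosb 0.54 and 0.61. Their permutation p-values adjusted over 21 pairs were 5.25e-05 for the first 3 pairs and 0.00021 (r) and 8.4e-05 (rho) for Fos and Fosb. Without the 2 mice farthest from the median of Fos, r was 0.78 with Junb, 0.78 with Fosl2 and 0.59 with Fosb, and for Fosl2 and Junb without the 2 farthest in Fosl2 it was 0.60. In all, 9 of 21 pairs passed, and the pair of these 5 genes that did not was Fosb and Jun (r = 0.30, permutation adjusted p = 0.0646). Centring keeps differences that run with the mouse number within a group. In H24, centred Fos lay between -0.7961 and 0.015 in mice 33 to 40 and between 0.0567 and 0.7257 in mice 42 to 51. How far this order carries the correlations was not tested.

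The other 5 passing pairs follow. Fosl2 and Jun had an r of 0.62 and a rho of 0.66 (permutation adjusted p = 5.25e-05 for both, r = 0.57 without the 2 mice). Fosb and Junb had 0.51 and 0.51 (permutation adjusted p = 0.00035 and 0.00036, r = 0.47), and Fosb and Fosl2 0.50 and 0.53 (0.00048 and 0.000315, permutation, r = 0.50). Fos and Jun had 0.43 and 0.50 (permutation adjusted p = 0.00509 and 0.000919, r = 0.33). Jun and Junb had 0.40 and 0.41 (permutation adjusted p = 0.00887 and 0.00646, r = 0.40). None of the 11 pairs with Fosl1 or Jund passed, with r from -0.23 to 0.04.

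The relations also differed in strength by region. Within single regions, r between Fos and Junb ran from 0.37 in VTA to 0.82 in PFC, and between Fos and Fosl2 from 0.26 in VTA to 0.76 in NAc. Fos in 1 region also followed Fos in the other regions of the same mouse, with a median r of 0.46 over 15 region pairs (0.26 to 0.81). The same median was 0.27 for Junb, 0.23 for Fosl2, 0.18 for Jun and 0.06 for Fosb, given as descriptions over the shared mice. The order of the H24 mice by number is held in these values too.

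**Figure D5:**
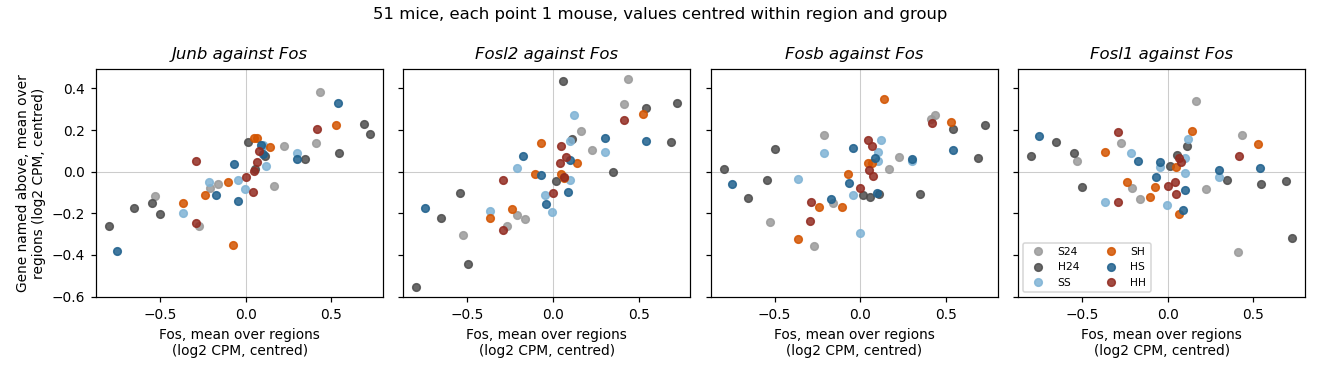
Mean over regions of log2 CPM, centred within region and group, of Junb, Fosl2, Fosb and Fosl1 against Fos, 1 point per mouse (51 mice) and colour for the group. Junb (r = 0.81) and Fosl2 (r = 0.80) rise with Fos, and Fosl1 does not.

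Genes with the most similar pattern were sought by r over all libraries used, centred within region and group, where 6 libraries can share a mouse. The 12530 genes compared had at least 1 CPM on average in each region. For Fos they were Arc (0.63), Nr4a1 (0.61), Junb (0.60), Dusp1 (0.55) and Dusp6 (0.54), which are activity-induced genes. Within single regions these r values varied widely. They ran from 0.11 to 0.90 for Arc, 0.04 to 0.85 for Nr4a1, 0.37 to 0.82 for Junb, 0.13 to 0.82 for Dusp1 and 0.11 to 0.80 for Dusp6. Junb was followed by Nr4a1 (0.73, and 0.59 to 0.86 within single regions), Fos, Dusp1, Arc and Egr1. Fosl2 was followed by Nr4a3 (0.70, and 0.11 to 0.90 within single regions), Nr4a1, Egr1, Midn and Fos. Among those for Fosb were Egr1 (0.58), Nr4a1, Cacnb1 and Cx3cl1. Jun had lower values, with Slit1 (0.48), Fosl2, Hdac4, Ptprs and Nptx1, and only 1 of these 5 stayed when the libraries that stood apart were left out. Fosl1 reached 0.35 at most (Ewsr1, Snrnp70, Ikbkb, Zfp512b and Tmem181b-ps), and its r with Ccdc85b was -0.07. The 5 for Jund all carry names of related sequences or pseudogenes (Pgk1-rs7, Oaz1-ps, Rps13-ps1, Rpl17-ps10 and Rpl10a-ps1, 0.55 to 0.58).

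The other genes of the pathway were read from lists. These were chosen with earlier results of these data known, so their counts are not independent of those results. Among 23 other immediate early genes, 22 were higher after heroin challenge in PFC and 10 of them rose. Over all genes there, 46.7% were higher and 0.235% were called. The median log2 difference was 0.27 for the 23 genes and -0.00784 over all genes. The 10 were Dusp6 (0.37), which encodes a MAP kinase phosphatase, Egr2 (0.70), Bdnf (0.32), Nr4a1 (0.48), Arc (0.49), Nr4a3 (0.37), Egr1 (0.40), Trib1 (0.40), Egr3 (0.27) and Egr4 (0.42), with edgeR adjusted p of 0.000175 for Dusp6 to 0.0235 for Egr4. In dStri 19 of 23 were higher and Nr4a3 rose (0.56, edgeR adjusted p = 0.00836), beside 48.5% of all genes higher and 0.00513% called there. The median was 0.22 in NAc, 0.16 in dStri, 0.05 in BLA, 0.07 in vHPC and -0.02 in VTA. In HH against HS in PFC, all 23 were higher, and Dusp6 (0.47), Nr4a1 (0.64) and Egr2 (0.88) rose. Beside them, 47.2% of all genes were higher there and 0.025% were called. For SH against SS the smallest p were those of Bdnf in PFC (0.31), Nr4a3 in dStri (0.52) and Dusp4 in NAc (0.53), none of them called.

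The partners, upstream factors and reported targets had medians near 0. Over all genes in the PFC challenge contrast, 46.7% were higher, 0.235% were called and 8.94% passed an unadjusted p of 0.05 in either direction. Of 14 genes for bZIP partners such as ATF and Maf proteins, 13 were tested in PFC and 9 were higher after heroin challenge (median 0.06), with 0 called by edgeR and 1 past an unadjusted p of 0.05. The lowest p in SH against SS all belonged to Atf3, a stress-induced partner, with 1.12 ± 0.382 (SE) in NAc, 0.95 ± 0.351 in vHPC and 0.91 ± 0.351 in PFC. Atf3 was not higher everywhere in this comparison, with -0.79 ± 0.426 in VTA and -0.63 ± 0.415 in BLA. Of 21 upstream kinases and factors, 20 were tested in PFC and 17 were higher (median 0.03), with 0 called by edgeR and 5 past an unadjusted p of 0.05. Their lowest p in SH against SS belonged to Mef2c in dStri (0.21 ± 0.0694) and Crem in NAc (0.36 ± 0.129) and dStri (0.28 ± 0.111). Of 10 genes reported as AP-1 targets, 6 were higher in PFC (median 0.03) and 0 were called by edgeR, with 3 higher and 1 lower past an unadjusted p of 0.05. Their lowest p in SH against SS were those of Ccnd1 in PFC (0.27 ± 0.0979), Penk in VTA (-0.24 ± 0.0908) and Vgf in PFC (0.24 ± 0.0955).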

How the data were processed

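The libraries (Illumina TruSeq Gold) kept strand, had ribosomal RNA removed and were read from 2 ends with 150 bp each, per the labels' protocols. The submitters' processing notes name HISAT2, HTSeq, SAMtools and FastQC, and build mm10. Versions, settings and annotation are not given in the sources used here. The authors deposited raw counts per Ensembl gene, and these were used as deposited. The other 7 files were not used here.

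The members and lists were chosen with earlier results of these data known. Gene names came from GENCODE M21 (167 of 168 list genes matched; Mkl1 did not) and promoters from RefSeq (Fosl1 had no entry). Counts were fitted per region, 24 h and 30 d mice apart, with edgeR 4.0.16 (TMM, filterByExpr at a minimum count of 10, quasi-likelihood test) in R 4.3.3. Benjamini-Hochberg adjustment ran over all genes of a region and contrast, with a call under 0.05. SE is the log2 difference divided by the root of F. CPM is counts-per-million of a library's total, here 19.31 to 61.35 M counts. Tests over mice used log2(CPM + 0.1), and permutation tests that were not exact used 100000 resamples. A library stood apart when its median rank correlation within its region was more than 4 scaled MADs low, or when another region was nearest. Replicates are different mice by the mouse identifiers in the labels; 1156 pairs of libraries of 1 region and group all differed beyond counting noise (lowest chi-square per degree of freedom 7.07). Regions of a mouse were paired by those identifiers. On simulated counts for NAc SH against SS (19165 genes), the fit called 58 of 94 genes made to differ by 0.8 on the log2 scale, 82 of 95 at 1.5 and 7 of 18976 unchanged ones. Smaller differences were not simulated, and the largest member difference in the challenge contrast was 0.72, so the share called at the sizes reported here is not known.

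The rule for named genes took all 7 members, with full values at an unadjusted p under 0.05 and for Fos, Fosb and Junb in SH against SS, the 5 genes most like each member (1 of those for Fosb is not reported here), and from each list the called genes and the 3 smallest p in SH against SS. Alternatives were DESeq2 1.42.0, its size factors in edgeR, no filter, leaving out the libraries that stood apart, covariates for marker scores and for the code set, log2(CPM + 1), TMM-scaled CPM and Spearman rho.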

Additional observations from a re-analysis of the deposited data

Results flagged for a closer look

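The H24 groups, with 11 libraries each, were not searched for outlying libraries. Of 210 groups of 4 to 10 libraries of 1 member, region and treatment, 17 (8.1%) held a library farther from the rest than Dixon's 95% limit on the log2 scale, where chance gives about 1 in 20. The values are CPM. For Fos they were HH mouse 25 in NAc (10.1, the others 18.5 to 30.3), SS mouse 28 and HS mouse 11 in dStri (5.99 and 5.67, the others 15.7 to 26.0 and 13.5 to 26.9), and S24 mouse 41 and SH mouse 30 in BLA (6.82, the others 9.75 to 11.2, and 45.8, the others 22.5 to 29.9). For Fosb they were SH mouse 29 in PFC (28.6, the others 38.6 to 50.0), SS mouse 31 in dStri (19.7, the others 26.3 to 33.9), and S24 mouse 46 and SS mouse 8 in vHPC (1.97, the others 4.05 to 6.47, and 10.0, the others 14.8 to 19.9). For Junb they were SH mouse 19 in BLA (53.7, the others 72.5 to 88.5), S24 mouse 46 in vHPC (27.1, the others 45.0 to 59.8) and SS mouse 8 in VTA (8.97, the others 14.4 to 18.8).

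For Fosl1 they were SH mouse 17 and HH mouse 16 in dStri (7.83 and 8.59, the others 4.17 to 5.25 and 5.29 to 6.22). For Jund they were HS mouse 2 in PFC (0.69, the others 1.22 to 1.85), SS mouse 22 in BLA (2.52, the others 0.832 to 1.31) and SS mouse 6 in vHPC (0.484, the others 0.866 to 1.41). The vHPC library of S24 mouse 46 was low for both Fosb and Junb. In the unsearched H24 groups, the VTA library of mouse 45 held 36.68 CPM of Fosl2, where the group median was 6.14 CPM. It was also the highest of that group for Jun (46.54 CPM) and Junb (17.28 CPM), and it enters the VTA means and correlations given above.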

How the results depend on the processing

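Of 44 member differences with an unadjusted p under 0.05 in H24 against S24, SH against SS, HH against HS or the challenge contrast, none changed direction under the alternatives run. For the challenge contrast, 3 members were called; 5 were with DESeq2, 5 with no filter, 1 with the meningeal and oligodendrocyte scores as covariates, and 3 to 4 when each PFC library was left out in turn (Junb in PFC was the fourth, without HH mouse 1 or 5, HS mouse 2 or 13, SH mouse 29 or SS mouse 15). For HH against HS, 1 was called; 2 were with DESeq2, 2 with no filter, 2 with the code set as a covariate, 2 with the excitatory neuron score, 0 with the meningeal and oligodendrocyte scores, and 0 to 4 when each PFC library was left out (4 without HS mouse 2 and 2 without HS mouse 13). For SH against SS, 0 were called, against 2 with DESeq2, 1 with no filter and 1 without the libraries that stood apart; for HH against SS, 0 against 1 with DESeq2 and 1 with no filter. In the mean over regions, 4 comparisons passed, against 9 without the libraries that stood apart and 8 with log2(CPM + 1). The paired comparison of neighbouring regions found 21 of 35 pairs, and 20 with no replicate block. The excitatory neuron score and the left-out PFC libraries were added after the data were seen. The depth limits Jund (8 counts at the lowest) and Fosb in VTA most: counting alone gives an SD of 0.243 and 0.192 on the log2 scale there. The cause of these changes was not tested.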
